A study of Mus musculus with 6 samples.

Results

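Immunoglobulin variable (V) segments were examined in hippocampal RNA of mice that had received control shRNA or L-DL shRNA. The set held every gene of the count table whose symbol began with Ighv, Igkv or Iglv and whose counts, summed over the 6 libraries, reached 10. This gave 142 of 52550 genes, of which 70 were heavy chain (Ighv), 69 kappa light chain (Igkv) and 3 lambda light chain (Iglv) segments. The rule used the summed count without regard to the groups. Just inside the limit lay Ighv1-66 and Igkv4-86 with 11 counts each, and just outside it lay 6 segments with 9 counts each (Ighv1-67, Igkv3-5, Igkv4-79, Igkv4-80, Igkv6-14 and Igkv9-123).

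An antibody is made of heavy and light chains, and the part of each chain that contacts antigen is encoded largely by a V segment. Each developing B cell joins 1 heavy chain V segment to D and J segments, and 1 light chain V segment to a J segment, and all its descendants carry the same joined genes. V segments are transcribed at high level in plasma cells, the antibody-secreting descendants of B cells, which are scarce in the brain tissue itself and are found at its borders, such as the meninges. The segment on which a read falls therefore shows which V segment was used in the transcript, although not which D and J segments or mutations went with it.

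The mice were male C57BL/6 J wild-type animals injected bilaterally in CA1 at 8 weeks of age with adeno-associated virus (AAV). The virus carried control shRNA in 3 mice and L-DL shRNA, as 4 sequences in tandem driven by the H1 promoter, in 3 mice, with a CamkIIα promoter and zsGreen to mark neurons in the injected area. L-DL is the long isoform of the RNA-binding protein hnRNP D-like, encoded by Hnrnpdl. The study's methods give a higher titre for the control virus, so that titre and shRNA cannot be told apart, and the labels call the second group both knockout and knockdown.

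Counts per library ranged from 16052529 to 17913064. Hnrnpdl was at 2862, 3120 and 2689 counts in controls 1 to 3 and at 3939, 2680 and 2904 counts in the L-DL KD-labelled libraries 1 to 3 (log2 fold change 0.03, standard error 0.12, edgeR adjusted p = 0.885), so no fall of the targeted gene was detectable at the gene level. Gene counts do not separate the long from the short isoform. The paper assessed its knockdown by immunoblot of L-DL protein in injected hippocampus and describes L-DL as reduced, which gene counts do not measure. The tissue label was checked by marker lists. Of 6 hippocampal neuron genes, 5 were lower in the L-DL KD-labelled libraries, with a summed level of 6872 to 7206 CPM (counts per 1000000 counts of the library, scaled by edgeR's TMM method) in the controls and 3928 to 4527 CPM in the others. All 6 microglia genes were higher, at 1040 to 1190 CPM against 424 to 524 CPM. Genes of choroid plexus and meninges, tissue that borders the hippocampus and may be dissected with it, did not move together. Their summed level varied among the libraries of both groups (443 to 4504 CPM in the controls and 134 to 5160 CPM in the L-DL KD-labelled libraries). Much of that sum was Ttr, at 371 to 4179 CPM in the controls. Ttr, Kl and Folr1 had negative log2 fold changes (-0.335, -0.397 and -0.211) without a call. The other 3 of the 6, Col1a1, Lum and Dcn, were called higher (1.696, 1.629 and 0.91). All L-DL KD-labelled libraries lay above all controls for Col1a1 and Lum, whereas the groups of Dcn overlapped. The part of these shifts in the V segment values was not tested. In whole tissue, fewer cells of a type and less RNA per cell cannot be told apart. Nothing in the labels ties the libraries to separate litters or preparation days, and p-values measure the spread between these samples only.

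The count table listed 348 V genes. Of these, 161 had no count in any library and 45 had 1 to 9 counts. Annotation split the list into 218 segments and 130 pseudogenes, which lack an intact reading frame, and pseudogenes took 0.402% of all V counts. The set held 140 segments and 2 pseudogenes (Igkv2-116 and Igkv4-77). All Ighv members lay on the minus strand of chromosome 12 and the 3 Iglv members on the minus strand of chromosome 16 (GRCm38), whereas the Igkv members on chromosome 6 lay in both orientations, 42 on the minus and 27 on the plus strand. Minus-strand segments held 68.8% of the Igkv counts.

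The sequences of 4 V exons show how closely these genes resemble each other, which bears on how a read is assigned. Ighv2-9 (ENSMUSG00000096638, part of the V exon shown at chr12:113879096-113879395, minus strand) and Igkv4-53 (ENSMUSG00000095753, part shown at chr6:69648824-69649123, minus strand) were the most counted segments of their loci. The 3′ 300 bases of each exon are shown, and capitals mark the bases at which each differs from its nearest relative. For Ighv2-9 this was Ighv2-6-8 (12 differences over the whole exon, 11 of them in the part shown, 96.1% identity), and for Igkv4-53 it was Igkv4-60 (7 differences, all in the part shown, 97.7% identity).
Ighv2-9: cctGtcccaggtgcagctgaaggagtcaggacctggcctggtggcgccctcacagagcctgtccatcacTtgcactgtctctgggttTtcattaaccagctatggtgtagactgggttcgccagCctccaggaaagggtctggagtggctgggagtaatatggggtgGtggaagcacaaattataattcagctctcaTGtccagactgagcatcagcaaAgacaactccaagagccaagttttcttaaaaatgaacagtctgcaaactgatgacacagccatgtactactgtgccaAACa
Igkv4-53: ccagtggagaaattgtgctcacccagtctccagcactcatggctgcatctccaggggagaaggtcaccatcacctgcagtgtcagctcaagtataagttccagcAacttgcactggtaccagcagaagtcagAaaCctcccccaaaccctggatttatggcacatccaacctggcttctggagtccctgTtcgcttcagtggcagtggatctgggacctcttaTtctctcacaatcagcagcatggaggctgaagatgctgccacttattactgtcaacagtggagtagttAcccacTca
Igkv13-84 (chr6:68939770-68940067, plus strand) and Igkv13-85 (chr6:68930269-68930566, minus strand) are neighbours in opposite orientation, and capitals mark the 9 bases at which they differ.
Igkv13-84: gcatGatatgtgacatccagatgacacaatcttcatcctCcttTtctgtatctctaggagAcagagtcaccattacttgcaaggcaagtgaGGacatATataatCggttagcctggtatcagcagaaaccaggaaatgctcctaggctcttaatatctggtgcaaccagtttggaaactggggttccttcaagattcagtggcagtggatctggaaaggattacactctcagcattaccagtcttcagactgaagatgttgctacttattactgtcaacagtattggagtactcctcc
Igkv13-85: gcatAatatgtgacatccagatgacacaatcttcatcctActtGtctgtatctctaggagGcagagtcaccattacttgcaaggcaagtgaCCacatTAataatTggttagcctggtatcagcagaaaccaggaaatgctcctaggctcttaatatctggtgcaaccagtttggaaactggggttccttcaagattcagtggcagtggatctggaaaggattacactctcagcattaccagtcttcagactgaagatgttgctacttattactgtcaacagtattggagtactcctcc
Both exons contain 1 stretch of 193 nt without a difference, which is longer than a read of 150 nt. Nevertheless the pair had distinct counts, with Igkv13-84 at 0, 0 and 1 counts in the controls and 57, 50 and 999 in the L-DL KD-labelled libraries, and Igkv13-85 at 2, 137 and 3 against 2, 2 and 3. The high libraries of the pair were different ones. All 142 members had a V exon in the annotation (294 to 351 nt, median 305), and 82 of them (57.7%) were at least 95% identical to their nearest relative. A shared exact run of at least 150 nt was found for 9 members. Counts of such segments may hold reads of the relative, since how reads with several matches were treated is not given in the sources used here. Because V exons are of nearly one length, shares of counts are compared between segments below without dividing by length.

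V segments were read in every library, at levels that spread widely within both groups. The members summed to 1444, 9348 and 13012 counts in control replicates 1 to 3 and to 9140, 15727 and 22283 counts in L-DL KD replicates 1 to 3. As a share of all gene counts, this was 0.00873 to 0.0811% in the controls and 0.0510 to 0.135% in the L-DL KD-labelled libraries. After scaling, the summed level was 88.4, 548 and 825 CPM in the controls and 504, 878 and 1337 CPM in the L-DL KD-labelled libraries. Control 1 stood far below the other 5 libraries, and the groups overlapped. The means were 487 ± 372 and 906 ± 417 CPM (SD, n = 3 each), a ratio of 1.86. The ratio fell to 1.32 without control 1 and rose to 2.85 without control 3, and the difference of the means was of the size of the spread within the groups.

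Kappa segments gave the largest share of V counts in each library, 56.0 to 64.7% in the controls and 52.6 to 56.4% in the L-DL KD-labelled libraries. Heavy chain segments followed with 32.4 to 41.7% and 37.6 to 41.5%. Their levels overlapped between the groups, at 28.7 to 344 CPM against 190 to 540 CPM for Ighv and at 57.2 to 463 CPM against 265 to 754 CPM for Igkv. The lambda chain, which few mouse antibodies use, had 2.57, 2.93 and 19.0 CPM in the controls and 49.5, 33.2 and 42.9 CPM in the L-DL KD-labelled libraries. Here all 3 L-DL KD-labelled libraries lay above all controls, with means of 41.9 ± 8.20 and 8.16 ± 9.36 CPM (SD, n = 3 each), a ratio of 5.13. As a share of V counts, lambda took 2.91, 0.535 and 2.30% in the controls and 9.81, 3.78 and 3.21% in the L-DL KD-labelled libraries, and these shares did not overlap either.

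**Figure D1:**
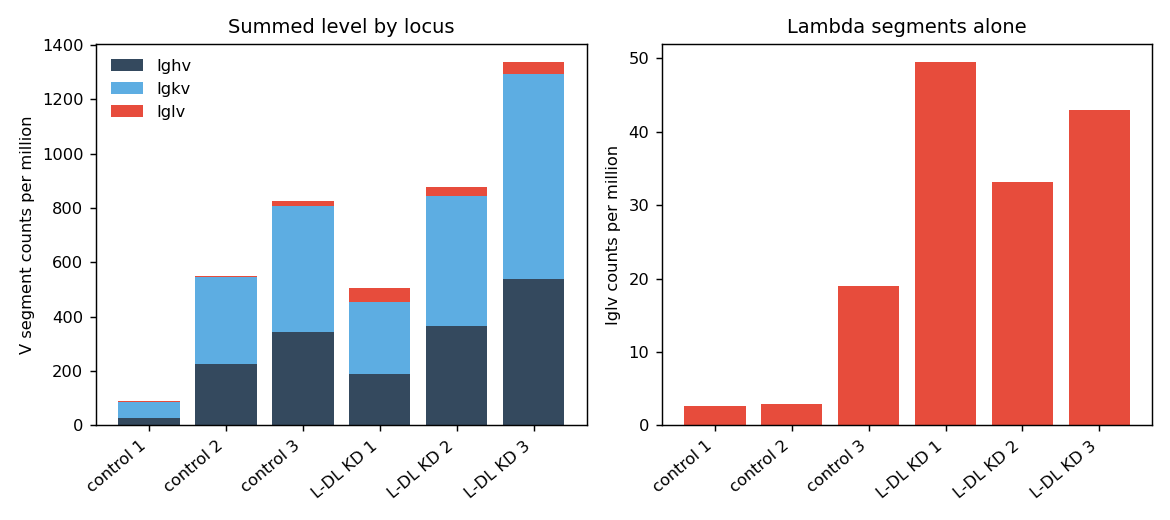
Summed V segment level in each of the 6 libraries in TMM-scaled CPM, stacked by locus (left), and the 3 lambda segments alone (right). Each bar is 1 library. Total levels run from 88.4 to 825 CPM in the controls and from 504 to 1337 CPM in the L-DL KD-labelled libraries, and lambda from 2.57 to 19.0 and from 33.2 to 49.5 CPM.

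Single segments dominated the V counts, more so in controls 2 and 3 than in any other library. The leading segment of each library took 19.7% of its V counts in control 1 (Igkv6-17, 95% Wilson interval 17.8 to 21.9%), 20.3% in control 2 (Igkv4-53, 19.5 to 21.2%) and 34.3% in control 3 (Igkv4-53, 33.5 to 35.1%). In the L-DL KD-labelled libraries it took 16.1% in replicate 1 (Igkv6-25, 15.4 to 16.9%), 7.69% in replicate 2 (Igkv4-53, 7.29 to 8.12%) and 12.6% in replicate 3 (Igkv4-53, 12.2 to 13%). These intervals cover counting error only, as reads are not independent molecules. The share was lower in all 3 L-DL KD-labelled libraries than in all 3 controls, with means of 12.1 ± 4.22 and 24.8 ± 8.26% (SD, n = 3 each), and no test was made of it. Leaving out the 2 segments Igkv4-53 and Ighv2-9, a choice made after their values were seen, the leading segment took 20.8, 28.5 and 12.3% in the controls and 20.4, 7.24 and 10.6% in the L-DL KD-labelled libraries (20.5 ± 8.11 and 12.7 ± 6.85%, SD, n = 3 each). Without the pair the groups thus overlapped, with Ighv1-9 leading in control 3 and Igkv6-25 in L-DL KD 1.

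The same order was not found for every measure of dominance. The inverse Simpson index, which gives the number of equally used segments that would be as uneven as the library, was 15.3, 8.52 and 4.85 in the controls and 15.1, 30.8 and 22.3 in the L-DL KD-labelled libraries. Control 1 and L-DL KD 1 thus had nearly the same value. To reach 50% of the V counts took 7, 3 and 2 segments in the controls and 6, 11 and 9 in the L-DL KD-labelled libraries, and to reach 90% took 36, 23 and 12 against 35, 46 and 39. On both counts, too, control 1 lay among the L-DL KD-labelled libraries. It also had the fewest V counts of all libraries. The 5 leading segments took 45.5, 68.7 and 74.2% of V counts in the controls and 49.4, 30.9 and 38.5% in the L-DL KD-labelled libraries.

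**Figure D2:**
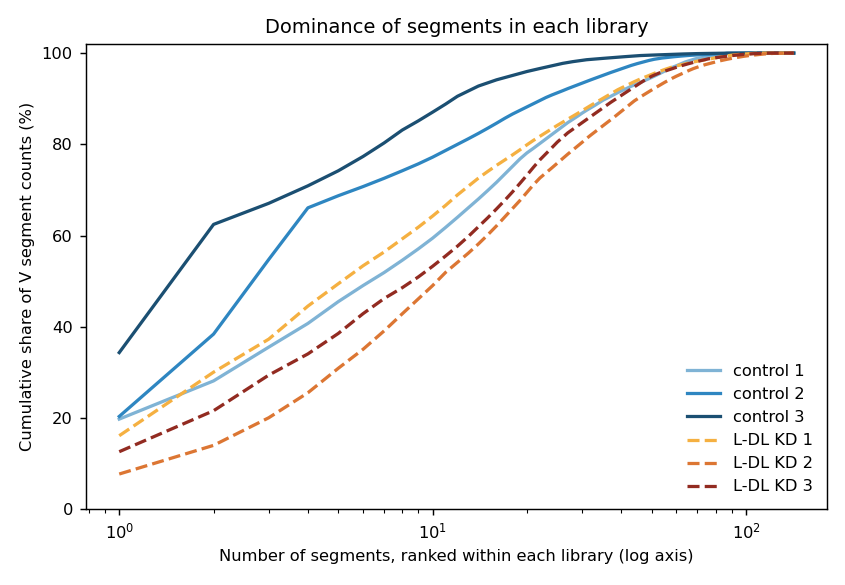
Cumulative share of V counts (y axis, %) against the number of segments ranked by count within each library (x axis, log scale), 1 line per library. The lines of controls 2 and 3 rise fastest, with 68.7 and 74.2% on 5 segments, and L-DL KD 2 rises most slowly with 30.9%. Control 1 runs close to L-DL KD 1.

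Igkv4-53 and Ighv2-9 were the most counted segments of the set, and their place differed from library to library. Igkv4-53 had 51, 1900 and 4466 counts in the controls and 1274, 1210 and 2805 in the L-DL KD-labelled libraries (133 ± 141 and 102 ± 57.4 CPM, SD, n = 3 each). Ighv2-9 had 23, 1530 and 3658 counts in the controls and 662, 862 and 525 in the others (108 ± 116 and 38.7 ± 8.52 CPM). Both were low in control 1 and highest in control 3, and the groups overlapped.

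Together the pair took 5.12, 36.7 and 62.4% of V counts in the controls and 21.2, 13.2 and 14.9% in the L-DL KD-labelled libraries. Within its own locus, Igkv4-53 took 61.2% of the kappa counts of control 3 and Ighv2-9 took 67.5% of its heavy chain counts, so that 1 segment of each chain held most of the reads there. In control 2, 2 segments of each chain shared the lead. Igkv4-53 and Igkv10-96 took 35.1 and 31.2% of kappa counts, and Ighv2-9 and Ighv1-74 took 39.4 and 27.3% of heavy chain counts. Igkv10-96 reached 1688 counts in control 2 but 69 and 52 in the other controls and 101, 311 and 420 in the L-DL KD-labelled libraries. Without the pair, the inverse Simpson index was 14.1, 8.14 and 15.3 in the controls and 14.9, 32.0 and 25.4 in the L-DL KD-labelled libraries, and was thus raised in control 3 but hardly altered in control 2.

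Control 1 was led by other segments. Igkv6-17 had 285 counts there, 5 and 34 in the other controls, and 57, 97 and 442 in the L-DL KD-labelled libraries. Igkv6-23 followed with 121 counts against 30 and 0 in the other controls, and Ighv1-69 with 107 against 71 and 85. Neither was particular to control 1, since Igkv6-23 had 70, 90 and 115 counts and Ighv1-69 had 6, 345 and 103 in the L-DL KD-labelled libraries.

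The L-DL KD-labelled libraries each had leading segments of their own besides Igkv4-53. In L-DL KD 1, Igkv6-25 led with 1471 counts, against 632 and 142 in the other 2 of that group and 36, 15 and 368 in the controls. L-DL KD 2 stood out by Igkv8-24 with 952 counts (57 and 414 in the other 2; 28, 248 and 249 in the controls) and by Igkv12-98 with 844 counts (0 and 99; 0, 0 and 1). L-DL KD 3 stood out by Igkv6-32 with 2003 counts (2 and 457; 39, 1 and 45), by Ighv1-26 with 1037 (48 and 591; 8, 65 and 63) and by Igkv13-84 with 999. The highest and the lowest count within the group thus differed by at least 10 times for each of these segments.

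**Figure D3:**
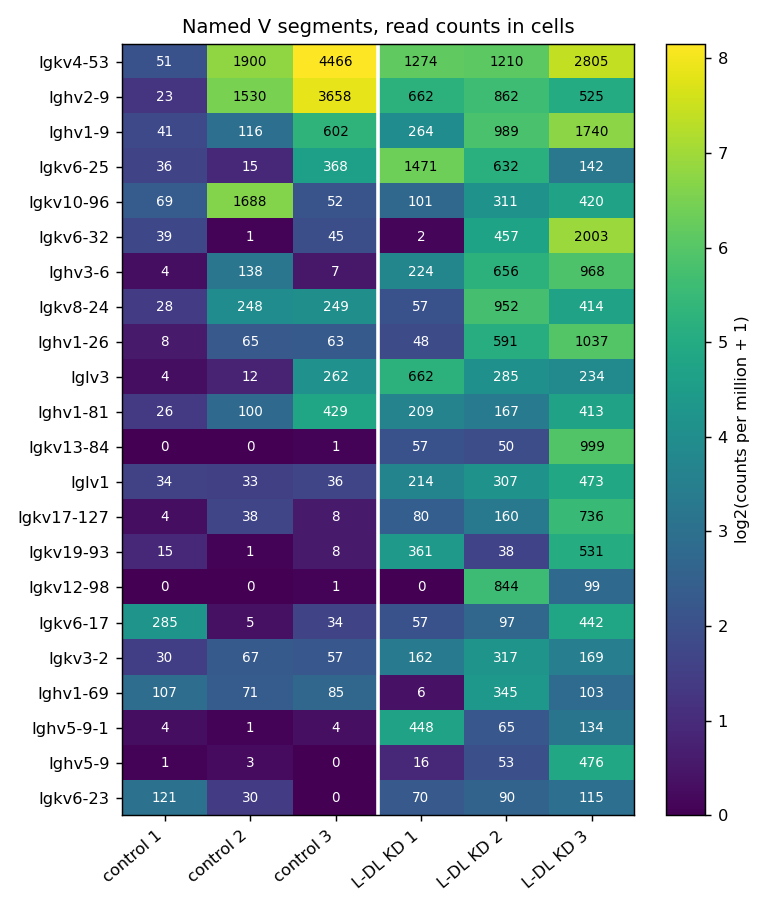
Read counts (numbers in cells) and log2(CPM + 1) (colour) of 22 V segments, in order of summed count, in the 6 libraries. Igkv4-53 and Ighv2-9 are brightest in control 3 (4466 and 3658 counts), whereas Iglv1 is even within the controls (33 to 36 counts) and higher in every library labelled L-DL KD (214 to 473 counts).

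V segments are grouped into families by sequence similarity, given by the first number of the name. The large Ighv1 family (38 members) held 50.7% of heavy chain counts over all libraries, with 77.6, 53.1 and 28.1% in the controls and 42.7, 60.7 and 57.6% in the L-DL KD-labelled libraries. Ighv2 held 27.7%, with 5.98, 39.9 and 67.7% in the controls and 29.4, 15.5 and 7.79% in the others, and nearly all of it in controls 2 and 3 was Ighv2-9. The shares of 4 of the 13 heavy chain families lay higher in all L-DL KD-labelled libraries than in all controls, and no family's lay lower. Among all tested genes, 20.2% lay higher in this way by level and 19.9% lay lower. Ighv3 took 1.07, 3.68 and 0.129% in the controls and 6.75, 12.5 and 12.3% in the L-DL KD-labelled libraries, and Ighv5 took 1.71, 0.309 and 1.75% against 15.6, 5.90 and 8.43%. The other 2 were the small families Ighv10 (0.641, 0.0515 and 0% against 0.727, 1.38 and 2.08%) and Ighv4 (0, 0 and 0.0369% against 0.0873, 1.52 and 0.422%), the latter with 2 counts in all controls together. Among kappa families, Igkv4 (17 members) led with 35.4% of counts, and its share ran from 15.8 to 68.0% in the controls and from 19.2 to 31.4% in the others. Igkv6 took 52.9% of kappa counts in control 1 but 1.18 and 6.28% in controls 2 and 3, against 35.7, 18.1 and 22.4% in the L-DL KD-labelled libraries. Igkv10 reached 31.2% in control 2 and Igkv12 reached 19.7% in L-DL KD 2, while neither exceeded 7.71% in another library. Of the 17 kappa families, Igkv12 (1.39, 0.997 and 0.123% against 2.48, 19.7 and 4.56%) and Igkv17 (0.857, 1.18 and 0.123% against 2.83, 5.14 and 6.63%) lay higher in all L-DL KD-labelled libraries, and none lay lower. Family shares of a locus depend on each other, as the large Ighv2 share of controls 2 and 3 lowers the other heavy chain shares there. The numbers of families lying apart are therefore a description.

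More V segments were detected in the L-DL KD-labelled libraries. With at least 3 counts as the limit of detection, 64, 69 and 56 members were detected in the controls and 95, 119 and 110 in the L-DL KD-labelled libraries (63 ± 6.56 and 108 ± 12.1, SD, n = 3 each). The number of V counts differed between the libraries, and more counts show more segments. Brought to the 1444 V counts of control 1, the expected number of segments with a count was 87, 65.6 and 46.7 in the controls and 85.9, 97.7 and 86.6 in the L-DL KD-labelled libraries. At equal depth control 1 therefore lay within the range of the L-DL KD-labelled libraries, and controls 2 and 3 lay below it.

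The libraries had few segments in common. Of the 142 members, 26 were detected in all 6 libraries, 28 in all 3 controls and 75 in all 3 L-DL KD-labelled libraries. Detection in L-DL KD libraries alone was found for 36 members, of which 10 were detected in all 3, 15 in 2 and 11 in 1, and detection in controls alone for 5. A segment could enter the set through 1 group alone, and V counts per library averaged 15717 in the L-DL KD-labelled libraries and 7935 in the controls. The 36 and 5 are therefore a description, and the like share of all genes was not counted. The numbers of members detected moved with the limit of detection. With 1 count as the limit, 47 members were detected in all 6 libraries, 54 in all controls, 98 in all L-DL KD-labelled libraries, 15 in the latter alone and 2 in controls alone, and with 10 counts the numbers were 11, 12, 43, 54 and 12. Segments detected in all 6 libraries held 59.9, 71.5 and 87.8% of V counts in the controls and 66.8, 62.2 and 55.8% in the L-DL KD-labelled libraries. By contrast, the 15 segments detected in 1 library only held between 0 and 4.25% of that library's V counts, the highest value in L-DL KD 3. At the limit of 3 counts, the core that all libraries shared was thus small in number but held most of the reads. At 10 counts, the 11 shared segments held 26.1, 62.6 and 77.5% of V counts in the controls. In the L-DL KD-labelled libraries they held 50.02, 41.2 and 33.7%. At that limit the core therefore held the smaller part of the reads in control 1, L-DL KD 2 and L-DL KD 3.

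Pairs of controls shared 35 to 38 segments, which was 54.7 to 67.9% of either list. Pairs of L-DL KD-labelled libraries shared 77 to 97, and the largest overlap was between replicates 2 and 3, whose 97 shared segments were 81.5 and 88.2% of their lists. A control and a library labelled L-DL KD shared 42 to 60 segments. These were 75.0 to 93.8% of the control's shorter list and 42.9 to 58.9% of the other, longer list.

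Overlap by abundance was lower than overlap by presence. Adding up, over all segments, the smaller of the 2 libraries' shares gives the composition they have in common, which was 21.7 to 47.8% between controls, 44.6 to 55.6% between L-DL KD-labelled libraries and 32.5 to 39.6% across the groups. The highest value among the controls, 47.8%, was that of controls 2 and 3, which both were led by Igkv4-53, and control 1 had less in common with either of them (26.8 and 21.7%) than with the L-DL KD-labelled libraries (32.5, 39.6 and 37.8%). Among the 10 leading segments of each library, 2 or 3 were shared between controls, 5 or 6 between L-DL KD-labelled libraries and 3 to 5 across the groups. Igkv4-53 was among the 10 in all 6 libraries, Ighv1-9 and Ighv2-9 in 5, and Ighv3-6 and Igkv6-25 in 4.

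**Figure D4:**
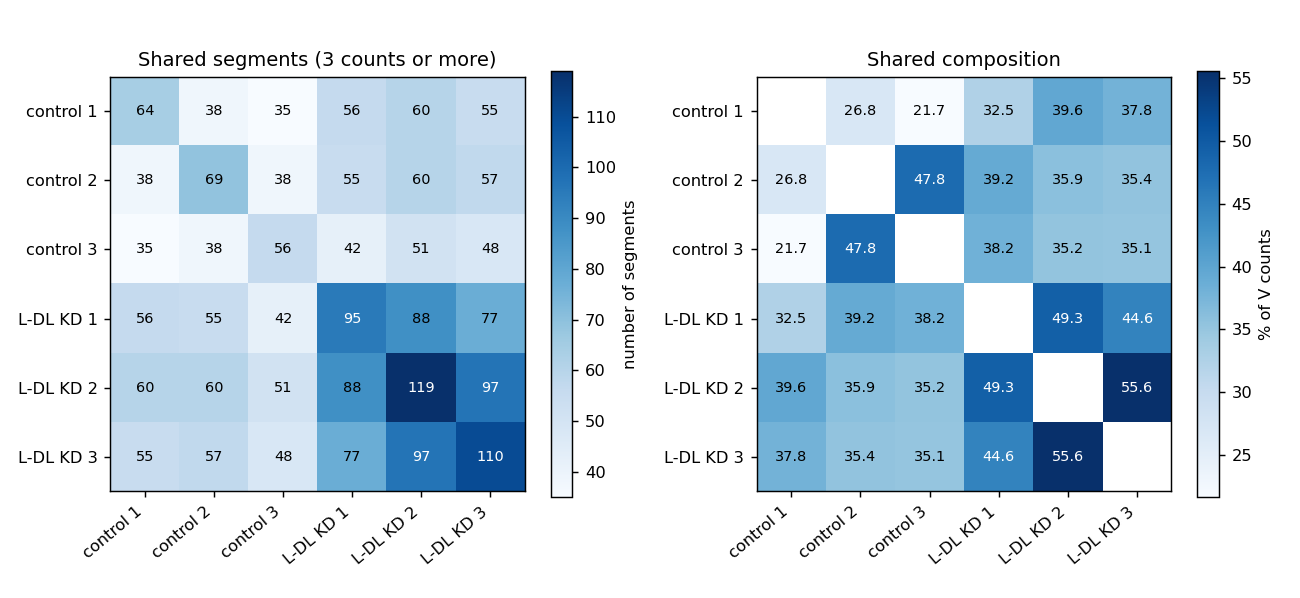
Left, number of V segments with at least 3 counts in both libraries of a pair, with each library's own number on the diagonal. Right, composition in common between 2 libraries, as the sum over segments of the smaller share (% of V counts). The L-DL KD-labelled libraries share 77 to 97 segments with each other and the controls 35 to 38, and composition in common runs from 21.7% (controls 1 and 3) to 55.6% (L-DL KD 2 and 3).

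Many segments were all but private to 1 library. More than 50% of the counts lay in 1 library for 97 of the 142 members, and more than 90% for 25, of which 10 were highest in L-DL KD 3, 6 in L-DL KD 2, 5 in control 2, 3 in control 3 and 1 in L-DL KD 1. The segments in this paragraph were chosen after their values were seen. Ighv1-74 had 1058 counts in control 2, with 1 and 0 in the other controls and 18, 15 and 1 in the L-DL KD-labelled libraries. In control 3, Igkv9-124 had 385 counts against 0 in both other controls and 11, 4 and 9 in the L-DL KD-labelled libraries, and the pseudogene Igkv2-116 had 230 counts there, with 1 further count in L-DL KD 2. In L-DL KD 3, Ighv8-12 had 522 counts and Igkv4-58 had 296, whereas the other 5 libraries had at most 27 and 1. Ighv1-62-2 had 504 counts in L-DL KD 3 and 0 in the others. Its V exon is identical to that of Ighv1-71, to which no read was assigned, so the pair cannot be told apart. Private segments were thus found in both groups.

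The members were also compared between the groups gene by gene, with edgeR's quasi-likelihood test over all 22841 genes with a summed count of at least 10. All 142 members entered this fit. A segment could enter through the counts of 1 group or 1 library alone, so the counts below are a description. At a Benjamini-Hochberg adjusted p under 0.05, 40 members (28.2%) were higher in the L-DL KD-labelled libraries, where the share of all tested genes was 11.5%, and 1 member was lower, where the share was 10.7%. In 30 members (21.1%), all 3 L-DL KD-labelled libraries lay above all 3 controls, which was also true of 20.2% of all genes. In 1 member they lay below, as in 19.9% of all genes. In this fit of all 6 libraries, the members thus exceeded the background in the number called but hardly in the number whose groups lay apart. At an unadjusted p under 0.05, 61 members were higher and 7 lower (17.6% of all genes were higher).

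The median log2 fold change of the members was 2.37, or 2.19 with the 17 segments that had no count in 1 group set at the bound that 3 counts give, against 0.0005 over all genes. It was positive in 109 members and negative in 33. The median standard error was 1.32 for members and 0.207 for all genes. Of the 40 members called higher, 23 were Ighv, 16 Igkv and 1 Iglv, and 33 had more than 50% of their counts in 1 library. In 12 of the 40 the groups overlapped. The number of members called depended on single libraries. It was 15 without control 1, 22 without control 2, 12 without control 3, 56 without L-DL KD 1, 21 without L-DL KD 2 and 29 without L-DL KD 3. Of all 22841 genes, 3166, 3273, 3091, 6192, 3820 and 3950 were called in the same fits. Without control 1, control 3 or L-DL KD 2, the share of members called thus lay below that of all genes. The share called higher stayed above that of all genes in each fit, but narrowly without control 1 or control 3 (12 members in each, against 1655 and 1551 genes). With a minimum of 10 counts in 3 or more libraries, 63 members could be tested and 22 were called, against 5379 of all 17621 genes tested there, a similar share.

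Of the 10 segments with the highest summed count, 2 were called (Ighv3-6 and Ighv1-26), which is near the 22.2% of all tested genes called. Igkv4-53 had a log2 fold change of -0.38 (standard error 0.99, adjusted p = 0.833) and Ighv2-9 of -1.47 (1.03, adjusted p = 0.359). Without control 1, in which Ighv2-9 was nearly absent, Ighv2-9 was called lower (log2 fold change -2.06, adjusted p = 0.0125). Ighv1-9 had 41, 116 and 602 counts in the controls and 264, 989 and 1740 in the L-DL KD-labelled libraries (1.88, standard error 0.91, adjusted p = 0.185). Adjusted p-values were 0.174 for Igkv6-25, 0.527 for Igkv10-96, 0.347 for Igkv8-24 and 0.0577 for Igkv6-32. Without control 3, Ighv1-9 and Igkv6-25 were called higher (adjusted p = 0.0342 and 0.0253), and without L-DL KD 1, Igkv6-32 was (adjusted p = 0.00119). Ighv1-81, Igkv6-17, Igkv6-23 and Ighv1-69, all among the leading segments of a library or locus, had log2 fold changes of 0.40 to 0.81 and adjusted p-values of 0.617 to 0.777. The sign of several of these values rested on 1 library. It turned for Igkv4-53 without control 3 (0.83), for Igkv10-96 without control 2 (2.08, adjusted p = 0.0502), for Ighv1-69 without L-DL KD 2 (-0.73), for Ighv1-81 without control 1 or L-DL KD 3 (-0.12 and -0.14) and for Igkv6-17 without L-DL KD 3 (-0.63).

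Of the 3 lambda segments, Iglv1 (ENSMUSG00000076934, chr16:19085017-19085500, minus strand) was the most even. It had 34, 33 and 36 counts in the controls and 214, 307 and 473 in the L-DL KD-labelled libraries (2.1 ± 0.175 and 19.1 ± 8.46 CPM, SD, n = 3 each). All L-DL KD-labelled libraries were well above all controls, and the gene rose by 3.18 on the log2 scale (standard error 0.33, adjusted p = 0.000397). Iglv3 had 4, 12 and 262 counts against 662, 285 and 234, so that control 3 lay within the range of the other group (1.93, standard error 1.06, adjusted p = 0.239). Without control 3 it was called higher (5.51, adjusted p = 0.00333). Iglv2, which is 97.0% identical to Iglv1, had 1 to 5 counts in the controls and 3 to 21 in the others (adjusted p = 0.218).

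A second segment with little spread was Igkv3-2, at 30, 67 and 57 counts in the controls and 162, 317 and 169 in the L-DL KD-labelled libraries (3.13 ± 1.13 and 12.3 ± 4.74 CPM, SD, n = 3 each). The groups lay apart, and it rose by 1.97 on the log2 scale (standard error 0.35, adjusted p = 0.00474). Ighv5-9-1 had 4, 1 and 4 counts against 448, 65 and 134 (5.99, standard error 0.88, adjusted p = 0.00201), and Igkv19-93 had 15, 1 and 8 against 361, 38 and 531 (5.17, standard error 1.03, adjusted p = 0.00809). These 4 segments, Iglv1 included, kept their call with any 1 library left out.

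The other 6 named segments with a call lost it in some fit that left out 1 library. Ighv3-6 had 4, 138 and 7 counts in the controls and 224, 656 and 968 in the L-DL KD-labelled libraries (3.58, standard error 0.98, adjusted p = 0.0312). Igkv17-127 had 4, 38 and 8 against 80, 160 and 736 (4.24, standard error 0.998, adjusted p = 0.0171), and Ighv5-9 had 1, 3 and 0 against 16, 53 and 476 (6.93, standard error 1.61, adjusted p = 0.0161). In all 3 the groups lay apart, with most of the counts of Igkv17-127 and Ighv5-9 in L-DL KD 3. Without control 1 or control 3 the adjusted p of Ighv3-6 was 0.0879 or 0.0965, that of Igkv17-127 was 0.0719 or 0.0770, and that of Ighv5-9 was 0.0719 in both cases. Without L-DL KD 2 or L-DL KD 3, Ighv3-6 came to 0.0765 or 0.0838, and without control 2 Ighv5-9 came to 0.0517.

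Igkv13-84 and Igkv12-98 each had 1 count in all controls together, which leaves the size of their rise open. The ratio of the summed levels was 1031 for Igkv13-84 (95% counting interval 185 to 40769, adjusted p = 0.0116) and 879 for Igkv12-98 (157 to 34766, adjusted p = 0.0258). Igkv12-98 had no count in L-DL KD 1, so that its groups overlapped. The groups of Ighv1-26 overlapped as well (3.55, standard error 1.01, adjusted p = 0.0358). Igkv13-84 lost its call without control 1 or control 3 (adjusted p = 0.0571 and 0.0769), Igkv12-98 without any 1 control or L-DL KD 2 (0.0617 to 0.123), and Ighv1-26 without any 1 library but L-DL KD 1 (0.0811 to 0.113).

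Some segments were absent from 1 group. No count was found in the 3 controls for 15 members and none in the 3 L-DL KD-labelled libraries for 2 (Ighv1-7 and Ighv15-2). A segment could enter the set through 1 group alone, and the L-DL KD-labelled libraries held more V counts in sum, so these numbers are a description. The following were chosen after their values were seen. Ighv5-16 had 0 counts in each control and 71, 54 and 23 in the L-DL KD-labelled libraries, at least 46.0-fold higher when 3 counts over the group are taken as the floor (adjusted p = 0.00158). Igkv12-41 had 0, 6 and 0 counts against 100, 229 and 104 (5.99, standard error 0.78, adjusted p = 0.00116), and Igkv6-15 had 13, 13 and 10 against 108, 281 and 59 (3.51, standard error 0.57, adjusted p = 0.00313). The 1 member called lower was Ighv1-7, with 3, 9 and 5 counts in the controls and 0 in the others, at least 6.08-fold lower (adjusted p = 0.0296). With 17 counts in all it was also among the least counted members, and DESeq2 called no member lower.

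V segments are joined to constant region genes, which decide the class of the antibody, and these were read along with them. Of 12 constant region genes, 3 were called higher and none lower, by edgeR as by DESeq2, and none was lower at an unadjusted p under 0.05. The heavy chain genes Ighg3 (14, 96 and 101 counts against 808, 1856 and 1868, log2 fold change 4.33, adjusted p = 0.00114) and Ighg1 (83, 190 and 100 against 1339, 474 and 3901, 3.88, adjusted p = 0.00709) encode IgG subclasses. Iglc1 is a lambda constant gene (5, 17 and 10 against 45, 40 and 69, 2.17, adjusted p = 0.0100). The kappa constant gene Igkc had 1231, 7292 and 7744 counts against 5065, 10156 and 15409 (0.83, adjusted p = 0.395), and the IgM gene Ighm had 1233, 2288 and 12518 against 7442, 11042 and 16690 (1.01, adjusted p = 0.396). As for the V segments, control 1 was lowest and L-DL KD 3 highest for both.

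For the kappa and heavy chain loci, the ratio of V to constant counts varied less across libraries than the levels did. Igkv counts per Igkc count were 0.759, 0.743 and 0.942 in the controls and 0.949, 0.847 and 0.816 in the L-DL KD-labelled libraries. Ighv counts per heavy chain constant count were 0.140, 0.204 and 0.242 in the controls and 0.216, 0.234 and 0.220 in the others, with control 1 lowest. The lambda ratio was more variable, at 8.40, 1.72 and 3.05 in the controls and 3.45, 3.81 and 4.65 in the others, with 5 constant counts behind the value of control 1. Ighm took 36.9, 12 and 56.0% of heavy chain constant counts in the controls and 46.8, 39.5 and 40.9% in the others, and Ighg2b and Ighg2c together held most of control 2 (37.7 and 39.6%).

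Joining segments, whose exons are short, had few counts, with 9 of 14 tested and none called by edgeR or DESeq2 (1 was higher at an unadjusted p under 0.05). T cell receptor V segments, the counterpart of these genes in T cells, were nearly silent. Of 170 listed, 100 had no count, 11 could be tested and none was called by edgeR or DESeq2, with 1 lower at an unadjusted p under 0.05 (3.61 to 4.87 CPM in the controls and 2.65 to 4.56 CPM in the L-DL KD-labelled libraries, median log2 fold change -0.30). A higher summed level was thus not seen in this other family of rearranging segments.

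Marker lists of the cells that express V segments gave few calls. Of 10 plasma cell genes, Sdc1 alone was called higher by edgeR (32, 68 and 68 counts against 224, 120 and 238, adjusted p = 0.0104), DESeq2 called 3, and the summed level of the list was 167 to 382 CPM in the controls and 243 to 583 CPM in the L-DL KD-labelled libraries. Jchain, which links IgM and IgA into multimers, had 421, 1441 and 2901 counts against 1970, 3331 and 5288 (1.06, adjusted p = 0.264). Mzb1, Derl3, Irf4 and Fkbp11 had negative log2 fold changes (-0.37, -0.12, -0.11 and -0.47) without a call, and the rest of the plasma cell list had positive ones. Of 10 B cell genes, Cd22 alone was called higher (adjusted p = 0.00185), with 23.1 to 27.1 CPM for the list in the controls and 31.2 to 39.3 CPM in the others. The defining B cell gene Ms4a1 had 6, 28 and 11 counts against 14, 19 and 10, which was near 0 in every library, and its groups overlapped. Of 10 T cell genes, 2 were lower (Trac and Lck; 54.1 to 85.2 CPM against 31.1 to 54.6 CPM), and of 5 red blood cell genes, a sign of blood in the tissue, none was called by edgeR or DESeq2 or had an unadjusted p under 0.05 (4.44 to 7.03 CPM against 7.67 to 12.4 CPM). The part of any of these cells in the V segment levels was not tested.

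Splice junction counts were available for 1 member. For Ighv1-9 (ENSMUSG00000094694, chr12:114583569-114584002, minus strand), the junction table lists 2 acceptor sites that lie 3 nt apart at the start of the V exon, behind an intron of 83 nt that follows the leader exon. Over all 6 libraries, the authors' junction counts summed to 3288 for the site with the longer exon and to 1 for the other. Nearly all of the junction reads thus used the same acceptor site. The columns of that table do not name the group of a library, and its counts were therefore not divided by group.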

How the data were processed

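RNA was taken from the hippocampus of 3 mice given control shRNA and 3 given L-DL shRNA, enriched with oligo(dT) and sequenced as read pairs of 150 nt. The authors deposited raw counts per Ensembl gene on GRCm38, without normalization, and an rMATS table of junction counts, whose fold and p-value columns (PSI differences and tests of the groups) were not used. The submitters' processing notes name HISAT2 2.1.0, HTSeq 0.6.1 and Bowtie 1.1.2. Strand setting and treatment of reads with several matches are not given in the sources used here. Other values of the junction table (coordinates and lengths) were used as deposited by the authors for 1 event only.

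Symbols, positions and V exons were taken from GENCODE M21 (GRCm38), which named 52403 of 52550 IDs. Identity was computed over aligned V exons. TMM scaling and the quasi-likelihood test of edgeR 4.0.16 (R 4.3.3) were applied to genes with a summed count of at least 10, with Benjamini-Hochberg adjustment over all of them. Sums, shares, overlaps and Wilson intervals (level 95%) came from Python 3.11.15 with scipy 1.17.1 and pandas 2.3.3. The script was tested on simulated data. Library totals were 16052529 to 17913064 counts.

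Members and gene lists were chosen with earlier results of these data known. Segments were named if they were among the 3 highest of a library, the 5 highest in summed count of Ighv or Igkv or the 2 highest of Iglv, or among the 10 called segments of highest summed count. Alternatives were DESeq2 1.42.0, other scalings, filters and detection limits, a block for the replicate number and fits without each library in turn.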

Additional observations from a re-analysis of the deposited data

How the results depend on the processing

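The number of members called, 41 in all, was 41 with DESeq2 size factors or library-size scaling and 35 with DESeq2's Wald test, which gave no adjusted p for 40 members. It was 22 under a minimum of 10 counts in 3 or more libraries, where 63 members could be tested, and 64 with no filter. Of all genes, 5379 of 17621 and 5265 of 31422 were called in these 2 fits. With 1 library left out the number of members called ranged from 12 to 56, and the number of all genes called, 5069, ranged from 3091 to 6192. Replicate numbers are in both groups' labels, but the deviations of same-numbered libraries correlated at 0.0535, 0.127 and -0.107 over 17621 genes, so they share only a number. With a replicate block 52 members and 4499 genes were called, 34 of the 41 members among them. The share of higher among all calls was 52.0%, and 56.0% with library-size scaling. Of the 22 named segments, 10 were called. None of these 10 changed sign under other scalings, with the block or with a library left out, and 6 lost the call with a library left out. Of the 12 others, 6 gained a call with a library left out or with the block, and 5 changed sign without being called. With the block, edgeR called Ighv1-9 (log2 fold change 2.26, adjusted p = 0.00255) and Igkv8-24 (1.18, adjusted p = 0.0178) higher. The log2 fold change became -0.055 for Ighv1-69, 0.10 for Igkv10-96 and 0.44 for Igkv4-53 with the block. With 1 library left out it ranged from -0.73 to 1.25 for Ighv1-69, -0.14 to 2.02 for Ighv1-81, -1.69 to 2.08 for Igkv10-96, -0.95 to 0.83 for Igkv4-53 and -0.63 to 3.26 for Igkv6-17. The ratio of summed V levels, 1.86, ranged from 1.32 to 2.85 with 1 library left out, and the mean share of the leading segment from 20.03 to 27.3% in the controls and from 10.1 to 14.3% in the L-DL KD-labelled libraries. Counted within the locus of the segment, this share was 42.3 and 22.3%. At 1 and at 10 counts as the limit of detection, the 75 segments shared by the 3 L-DL KD-labelled libraries became 98 and 43, the 26 shared by all libraries 47 and 11, and the 28 shared by the controls 54 and 12. The number of members was 158 at a summed count of 5 and 130 at 20. Segments with few counts limit all of this, since their detection and calls rest on 1 or 2 libraries, and reads of near-identical segments may be exchanged.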
